A study of Ovis aries with 6 samples.

Results

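The longissimus dorsi muscle of sheep was examined for the enzymes that oxidize and reduce alcohols, aldehydes, retinoids and steroids, including the cytochrome P450 enzymes. The members were the genes of the deposited count table whose symbols begin with ALDH, ADH, AKR, DHRS, RDH, HSD or CYP followed by a digit, together with DHDH. HSD11B1 and HSD11B2 were left out by symbol alone, so HSD11K, whose best human match is HSD11B2, remained a member. This rule gave 69 of the 23144 genes in the table. The libraries came from 6 females aged 1 year, 3 of the newly bred Qianhua Mutton Merino (QHMM) and 3 of the local Small Tail Han (STH) breed, with 1 library per animal. Husbandry was common to both breeds (housing, daylight, ad libitum feeding), and the labels name no treatment. Per the paper's methods, live weight before slaughter was taken after a fast. The muscle had been snap-frozen, and its poly(A) RNA was read on an Ion Proton instrument. The comparison of interest was STH vs. QHMM, that is, which of these genes differ in expression between the breeds.

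These enzymes pass hydrogen between a substrate and NAD or NADP, or, in the P450 enzymes, insert oxygen with electrons that reach the haem through a reductase. Aldehyde dehydrogenases turn aldehydes from amino acids, lipids and alcohol into acids, mostly in mitochondria. Retinoic acid, which acts on nuclear receptors, is made from retinol in 2 oxidations, the first carried out by retinol dehydrogenases and the second by ALDH1A enzymes. Hydroxysteroid dehydrogenases are named for steroids, although several of them work on fatty acids instead, and most steroid and drug P450 enzymes are known from liver, adrenal gland and gonad rather than muscle.

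The libraries held between 10982191 and 14334544 counts on genes. Counts were scaled by edgeR's TMM method to the median library and are called normalized counts below. Levels of different genes are compared in RPKM, the length- and depth-scaled read numbers that the authors deposited. The 12506 genes that passed edgeR's filter on low counts were tested, and a gene was called when its FDR was below 0.05 and its log2 fold change above 0.585 or below -0.585. The breeds lay apart on the first principal component of all tested genes (44.05% of the variance), and QHMM replicate 2 and STH replicate 3 stood apart from the other 4 libraries on the second, which held 19.11%. Of the 10 muscle markers chosen, 7 were in the table and 6 were tested, none of them called in either direction, while TNNT3 was listed at 0. The deposited table held 6 liver markers, of which 0 passed the filter, with at most 2 counts of ALB and 16 of FGB, the highest of them, in any library. Of the 4 endothelial, 5 fibroblast, 5 smooth muscle and 4 blood and macrophage markers tested, 0 were called. All 5 fibroblast markers nevertheless had a negative log2 fold change, with a median of -0.60, and COL1A1 had -1.30 without overlap. Their summed levels were 444, 289 and 543 RPKM in QHMM and 434, 219 and 209 RPKM in STH, and the part of fibroblasts in the results for the members was not tested. With 3 animals per breed, the smallest p of an exact permutation test of a single value is 0.1.

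Many of the members were hardly expressed in this muscle. No read was counted in any library for 15 of the 69, and a further 6 had at most 3 counts in each library, a floor that corresponds to between 0.209 and 0.273 CPM, counts scaled to the library total. The 15 at 0 were ADH7, AKR1B10, AKR1D1, ALDH1B1, CYP2C19, CYP2E1, CYP4F21, CYP11A1, CYP11B1, HSD17B2, HSD17B13, HSD17B14, HSD3B1, RDH8 and RDH16. They include CYP11A1, which starts steroid synthesis from cholesterol, HSD3B1, which acts next in that pathway, and CYP2E1, the ethanol-induced P450 of liver. The 6 at the floor were ALDH8A1, CYP3A24, HSD17B3, RDH12, CYP19 and CYP24. Another 7 had some reads and still missed the filter, namely ALDH3A1, CYP2A6, HSD11B1L, HSD17B1, ALDH1A2, DHRS9 and CYP17A1. That left 41 members for the test. A listed 0 does not show that a gene is silent, since TNNT3, a gene of fast muscle fibres, is listed at 0 in the same libraries.

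DHRS7C and ALDH2 were the most abundant members. DHRS7C, a short-chain dehydrogenase of the sarcoplasmic reticulum of striated muscle, had the highest mean level of the 69 with 622 RPKM, and ALDH2, which oxidizes acetaldehyde and the aldehydes of lipid peroxidation in mitochondria, was next with 427 RPKM. HSD17B10, a mitochondrial dehydrogenase of isoleucine breakdown that is also a subunit of mitochondrial ribonuclease P, followed with 84.6 RPKM. Below it came HSD17B8 (50.2 RPKM), AKR1B1 (49.2 RPKM), DHDH (41.1 RPKM), AKR1A1 (35.9 RPKM), DHRS1 (31.1 RPKM), DHRS3 (28.5 RPKM) and ALDH1A1 (27.0 RPKM). Neighbours in this order lay close together, and the libraries of AKR1B1 (36.7 to 55.3 RPKM) and DHDH (23.7 to 69.0 RPKM) overlapped. DHRS11, ALDH4A1, ALDH6A1, ADH5 and ALDH5A1 completed the 15 most abundant members, with means from 18.0 to 24.1 RPKM.

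**Figure D1:**
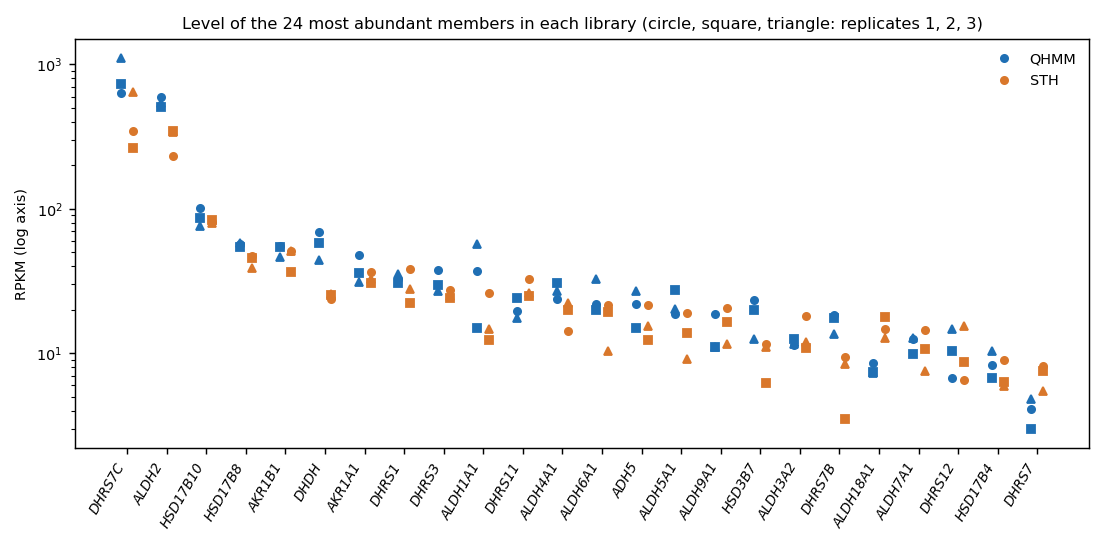
RPKM (log axis) of the 24 members with the highest mean level in each of the 6 libraries, with QHMM in blue and STH in orange and 1 symbol per replicate. DHRS7C and ALDH2 lie well above the rest, with means of 622 and 427 RPKM against 84.6 RPKM for HSD17B10, the next member.

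The summed level of the 69 members was 1938, 1859 and 2289 RPKM in QHMM replicates 1, 2 and 3, and 1178, 1111 and 1494 RPKM in STH replicates 1, 2 and 3. All QHMM libraries exceeded all STH libraries in this sum. The members took 0.307%, 0.286% and 0.342% of all counts in the QHMM libraries and 0.186%, 0.183% and 0.221% in the STH libraries, with 95% Wilson intervals of at most 0.00327 percentage points to either side, which cover counting error alone. DHRS7C and ALDH2 together were 63.3%, 66.9% and 72.0% of the summed level in QHMM and 49.1%, 55.0% and 66.2% in STH. STH replicate 3 lay inside the QHMM range for that share. Slow-fibre markers moved with the breeds as well. Of 10 chosen, the 8 in the table all had a negative log2 fold change with an unadjusted p below 0.05, and 4 were called, with summed levels of 16080 to 23180 RPKM in QHMM and 7070 to 10970 RPKM in STH. In bulk muscle, fewer cells of a type and less RNA per cell cannot be told apart. The part of fibre type in the results for the members was not tested.

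**Figure D2:**
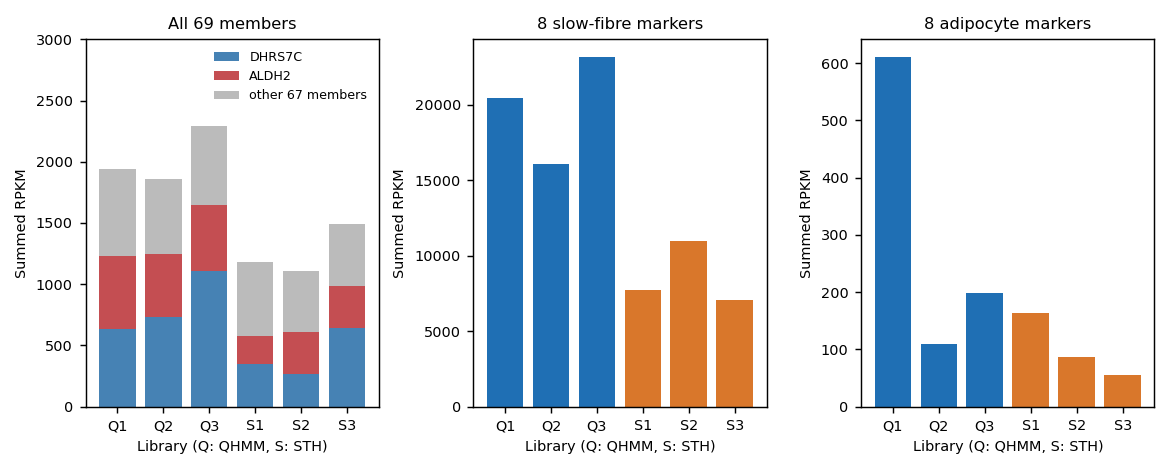
Summed RPKM in each library (Q, QHMM; S, STH; replicates 1 to 3) of the 69 members, of the 8 slow-fibre markers in the table and of the 8 adipocyte markers. DHRS7C and ALDH2 form 63.3% to 72.0% of the member bar in QHMM and 49.1% to 66.2% in STH, and the adipocyte sum of QHMM replicate 1 (611 RPKM) exceeds all others.

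Of the 41 members tested, 2 were called (4.88%), compared with 3.45% of all tested genes, so that the share called lay near the background. HSD17B12 and DHDH were lower in STH (1.83% of all tested genes were called lower), and 0 members were called higher, compared with 1.62% of all tested genes. At an unadjusted p below 0.05 there were 15 members, 2 higher and 13 lower in STH, compared with 19.2% of all tested genes, 9.43% higher and 9.72% lower. The breeds did not overlap in 13 members, 3 higher and 10 lower in STH, where the share over all tested genes was 24.7%, with 13.0% higher and 11.7% lower. By sign alone, 29 of the 41 (70.7%) were lower in STH, against 48.2% of all tested genes, and the median log2 fold change was -0.27 against 0.02. The members were chosen with earlier results known, so these shares are descriptions. DESeq2 called 9 members, 1 higher and 8 lower in STH, against a background of 7.48%. These 9 were HSD17B12, DHDH, ALDH18A1, ALDH1A1, ALDH1L1, ALDH2, ALDH5A1, DHRS7B and HSD3B7. Limma-trend called DHDH alone on log2(RPKM + 1) and on log2(RPKM + 0.1), against backgrounds of 3.11% and 2.94%. Upper-quartile normalization and a minimum of 10 counts in every library left the same 2 calls, against 3.25% and 3.95%. Without a filter on low counts 4 members were called against 4.56%, and with the replicate number as a block 3 were called against 3.65%. Leaving out both QHMM replicate 2 and STH replicate 3 left 0, where 0.0864% of all genes were called.

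**Figure D3:**
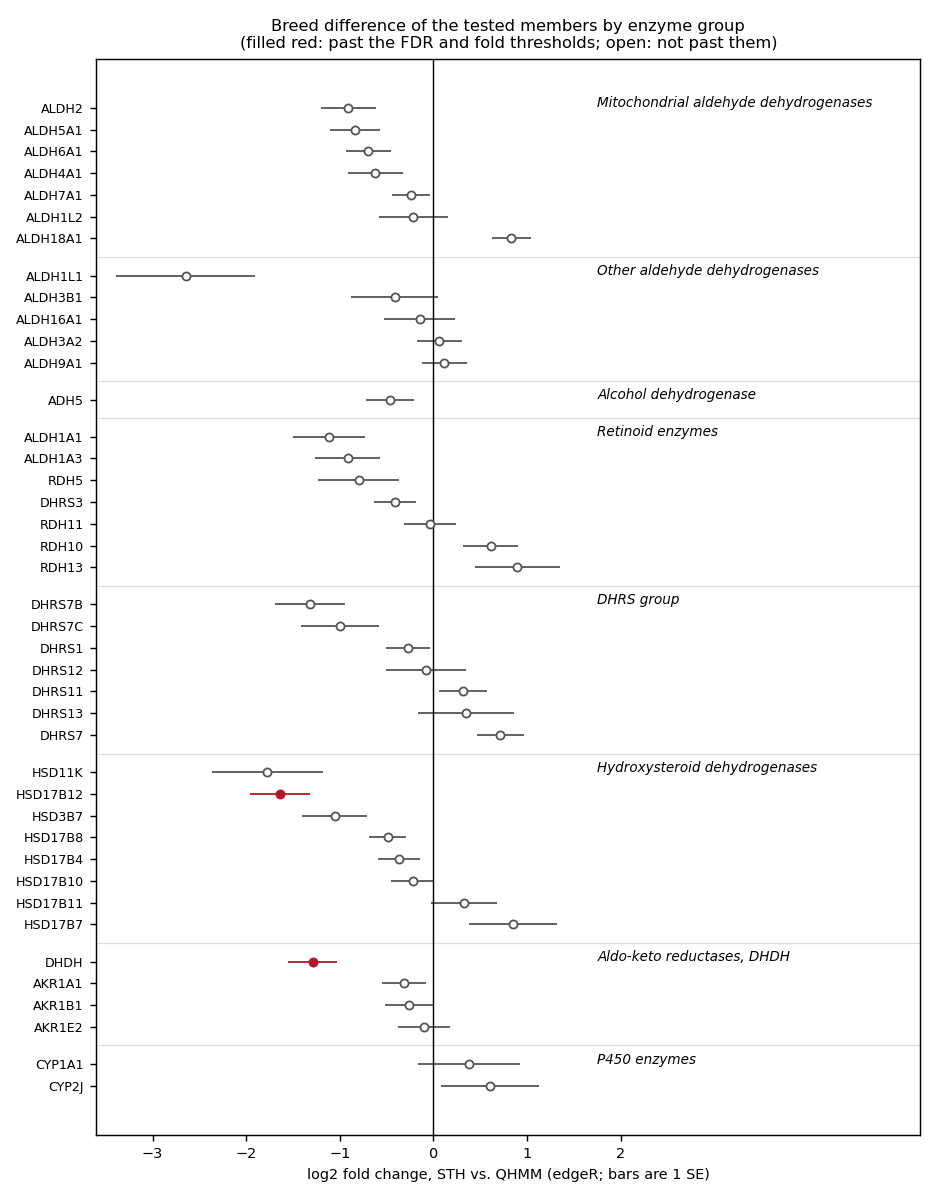
Log2 fold change, STH vs. QHMM, of the 41 tested members with bars of 1 SE from edgeR, grouped by enzyme class. The 2 filled points, HSD17B12 (-1.64) and DHDH (-1.29), passed the thresholds, and 29 of the 41 points lie below 0.

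HSD17B12 had the lowest FDR among the members. Despite its name, it is best known as the 3-ketoacyl-CoA reductase of the endoplasmic reticulum, which carries out a reduction step in the elongation of long fatty acids. Its normalized counts were 289, 133 and 215 in QHMM replicates 1 to 3 and 64.1, 57.1 and 83.6 in STH replicates 1 to 3. All STH libraries lay below all QHMM libraries, and the QHMM animals differed among themselves by 2.17-fold. The mean fell from 212 ± 77.9 (SD, n = 3) in QHMM to 68.3 ± 13.7 (SD, n = 3) in STH, 3.12-fold higher in QHMM, with a log2 fold change of -1.64 (FDR = 0.0240, SE 0.32). The call was lost without QHMM replicate 1 (-1.38, FDR = 0.0839), QHMM replicate 3 (-1.63, FDR = 0.0703) or STH replicate 2 (-1.55, FDR = 0.0673), and in limma-trend on log2(RPKM + 1) (-1.12, FDR = 0.0814) and log2(RPKM + 0.1) (-1.43, FDR = 0.0803). The highest and the lowest QHMM values of HSD17B12 were in replicates 1 and 2, which also had the highest and the lowest QHMM sums of adipocyte markers, 611 and 110 RPKM. The STH libraries did not follow this order. Replicate 3 had the highest STH value of HSD17B12 and the lowest adipocyte sum, 55.4 RPKM, while the highest STH sum, 163 RPKM, was in replicate 1. The part of fat cells in these values was not tested.

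DHDH encodes a dimeric dihydrodiol dehydrogenase, which oxidizes trans-dihydrodiols of aromatic hydrocarbons and some sugars with NADP. The QHMM libraries held 1090, 1090 and 685 normalized counts and the STH libraries 317, 369 and 486. The lowest QHMM library still exceeded the highest STH library. The mean fell from 955 ± 234 (SD, n = 3) to 391 ± 86.5 (SD, n = 3), with a log2 fold change of -1.29 (FDR = 0.0265, SE 0.26). It passed the thresholds in both limma-trend tests on RPKM. Without QHMM replicate 1 (FDR = 0.0872), QHMM replicate 2 (FDR = 0.0857), STH replicate 1 (FDR = 0.0528) or STH replicate 2 (FDR = 0.0757), the call was lost, although the log2 fold change stayed between -1.48 and -1.17 over the 6 fits that left out 1 library.

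The mitochondrial aldehyde dehydrogenases numbered 8, of which 7 were tested and 0 were called. Within this group, 4 enzymes had an unadjusted p below 0.05, 1 higher and 3 lower in STH, where the share over all tested genes was 19.2%. In each of these 4 the breeds did not overlap, which held for 24.7% of all tested genes. The median log2 fold change of the 7 tested was -0.62, with 6 of 7 below 0. ALDH2 had 15879, 16104 and 14084 normalized counts in QHMM and 5232, 8453 and 10857 in STH. Its QHMM libraries agreed closely, with a coefficient of variation of 7.21%, while its STH libraries varied by 34.5%. The log2 fold change was -0.91 (SE 0.29, FDR = 0.122), and DESeq2 called it (FDR = 0.0224).

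Enzymes of amino acid and related breakdown had values on the same side. ALDH5A1, which oxidizes the succinic semialdehyde made from GABA, had 1178, 2034 and 1242 normalized counts in QHMM and 1005, 800 and 684 in STH (log2 fold change -0.84, SE 0.27, FDR = 0.119). ALDH6A1, which acts on methylmalonate semialdehyde from valine and thymine, had 616, 668 and 904 in QHMM and 509, 500 and 344 in STH (log2 fold change -0.69, SE 0.24, FDR = 0.148). For both, all QHMM libraries exceeded all STH libraries. ALDH7A1, an enzyme of lysine breakdown, had a log2 fold change of -0.24 (FDR = 0.574, SE 0.21) and the narrowest spread among QHMM animals after AKR1E2, with a coefficient of variation of 3.87%.

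Proline metabolism is covered by a pair of members that work in opposite directions. ALDH18A1, the synthase that starts proline formation from glutamate, had 363, 373 and 304 normalized counts in QHMM and 522, 690 and 641 in STH. All STH libraries were above all QHMM libraries, and the log2 fold change of 0.83 (FDR = 0.0582, SE 0.21) narrowly missed the FDR threshold, while DESeq2 called it (FDR = 0.0246). ALDH4A1, which completes the return of proline to glutamate, had 681, 1045 and 760 in QHMM and 343, 522 and 754 in STH. STH replicate 3 lay inside the QHMM range, and the log2 fold change of -0.62 (FDR = 0.285, SE 0.30) did not pass the test. The difference between these 2 fold changes was not tested.

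Among the other aldehyde dehydrogenases, 5 of 7 were tested and 0 were called. ALDH1L1, the cytosolic 10-formyltetrahydrofolate dehydrogenase of folate metabolism, had the lowest log2 fold change of all members, -2.64 (SE 0.74, FDR = 0.0791). The QHMM libraries held 131, 17.7 and 28.7 normalized counts and the STH libraries 12.5, 4.31 and 11.3. No STH library reached the QHMM range, but QHMM replicate 1 was 7.42-fold above the lowest QHMM library, and without it the log2 fold change was -1.31 (FDR = 0.315). QHMM replicate 1 was also the library with the most adipocyte RNA. The 8 adipocyte markers summed to 611, 110 and 198 RPKM in QHMM and 163, 85.9 and 55.4 RPKM in STH, 7 of them had an unadjusted p below 0.05, 5 were called lower in STH, and LEP was at 0 in STH replicate 2. The part of fat cells in the ALDH1L1 values was not tested. ALDH1L2, the mitochondrial counterpart, had a log2 fold change of -0.21 (FDR = 0.805, SE 0.37).

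ALDH9A1, which makes a precursor of carnitine, had 510, 362 and 299 normalized counts in QHMM and 478, 412 and 380 in STH. The value of 0.12 on the log2 scale (FDR = 0.843, SE 0.24) was the highest in this group. ALDH3A2, the fatty aldehyde dehydrogenase of the endoplasmic reticulum, had 0.06 (SE 0.24, FDR = 0.923). In both genes the breeds overlapped. ADH5, which removes formaldehyde bound to glutathione and reduces S-nitrosoglutathione, was the single alcohol dehydrogenase tested, with 412, 336 and 497 normalized counts in QHMM, 345, 212 and 347 in STH and a log2 fold change of -0.46 (FDR = 0.361, SE 0.26). ADH7, the other alcohol dehydrogenase of the table under this name rule, was at 0.

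**Figure D4:**
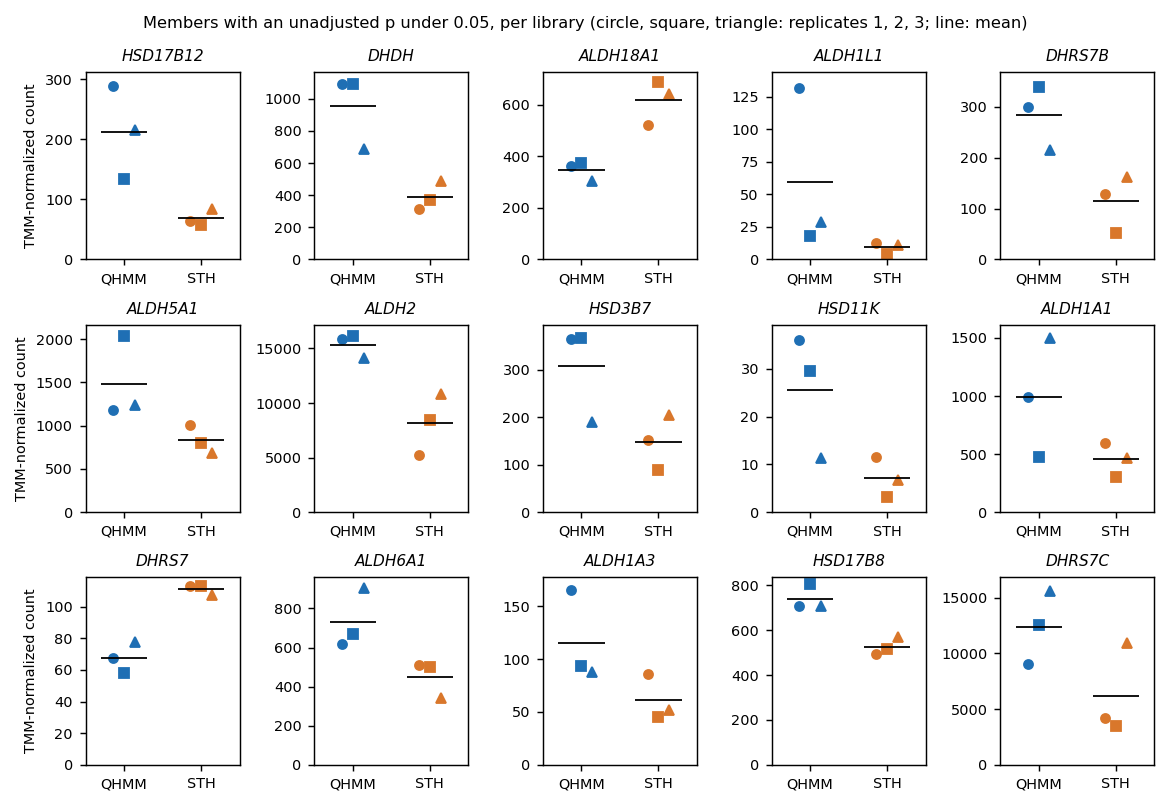
TMM-normalized counts of the 15 members with an unadjusted p below 0.05 in each library, with circles, squares and triangles for replicates 1, 2 and 3, lines for the means and axes that start at 0. ALDH18A1 and DHRS7 are the 2 members higher in STH, and the ALDH1L1 mean in QHMM rests on replicate 1 (131 normalized counts against 17.7 and 28.7).

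Of the 12 retinoid enzymes, 7 were tested and 0 were called, with a median log2 fold change of -0.41. ALDH1A1, which turns retinal into retinoic acid, had 991, 478 and 1496 normalized counts in QHMM and 593, 305 and 470 in STH. QHMM replicate 2 lay within the STH range, and the log2 fold change was -1.12 (SE 0.38, FDR = 0.142). ALDH1A3, which carries out the same reaction, had 166, 93.3 and 88.1 in QHMM and 85.7, 45.3 and 52.0 in STH, without overlap but with only a small gap between the lowest QHMM and the highest STH library (log2 fold change -0.92, SE 0.35, FDR = 0.182). ALDH1A2, the third enzyme of this kind, had 1, 10 and 0 counts in QHMM and 10, 3 and 7 in STH and was not tested.

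The enzymes between retinol and retinal did not share a direction. RDH10, which oxidizes retinol to retinal, had 47.7, 56.7 and 35.8 normalized counts in QHMM and 66.6, 80.8 and 66.7 in STH. All STH libraries were higher, and the log2 fold change was 0.61 (SE 0.29, FDR = 0.286). DHRS3, which reduces retinal back to retinol, was far more abundant and had 934, 880 and 654 in QHMM and 579, 553 and 728 in STH, so that the breeds overlapped (log2 fold change -0.41, SE 0.22, FDR = 0.352). RDH5, known for 11-cis-retinol, had 91.8, 59.0 and 42.0 in QHMM and 49.1, 17.2 and 44.1 in STH (log2 fold change -0.80, SE 0.43, FDR = 0.347). RDH11 had a log2 fold change of -0.04 (FDR = 0.956, SE 0.28). RDH13, a mitochondrial relative, had the highest log2 fold change among the members, 0.90 (SE 0.45, FDR = 0.309), with overlap between the breeds. DHRS9, which missed the filter, had 29, 23 and 6 counts in QHMM and 9, 4 and 1 in STH.

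Retinoid carriers and receptors were examined beside these enzymes, as a list that also followed earlier results. Of 20 genes on the list, 17 were in the table and 8 were tested. Of these 8, 2 were called (25.0%), both lower in STH, compared with 3.45% of all tested genes. As the list followed earlier results, this share is a description. The median log2 fold change of the 8 was -0.56. RXRG, the retinoid X receptor known from muscle, had 1129, 1457 and 773 normalized counts in QHMM and 315, 156 and 363 in STH, which gave a log2 fold change of -2.01 (SE 0.34, FDR = 0.0143). It was called in all 6 fits that left out 1 library. RBP4, which carries retinol in blood and is made by liver and fat, had 989, 413 and 562 in QHMM and 287, 164 and 241 in STH (log2 fold change -1.50, SE 0.34, FDR = 0.0406). RBP4 was lost without QHMM replicate 1 (-1.10, FDR = 0.107), QHMM replicate 3 (FDR = 0.0772), STH replicate 2 (FDR = 0.112) or STH replicate 3 (FDR = 0.0780), and its highest value was in QHMM replicate 1, the library with the highest adipocyte sum. The part of fat cells in the RBP4 values was not tested.

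CRABP2, which delivers retinoic acid to the nucleus and was named after its values were seen, lay in the other direction. It had 43.2, 33.1 and 145 normalized counts in QHMM and 339, 80.8 and 461 in STH. STH replicate 2 fell below QHMM replicate 3, and the log2 fold change of 1.99 (FDR = 0.121, SE 0.64) did not pass the test. Without QHMM replicate 3 the log2 fold change was 2.94 (FDR = 0.0673), and with no filter on low counts or with the replicate block the gene was called (FDR = 0.0289 and 0.0174). Also named after their values were seen were 3 receptors. RARB had -0.52 on the log2 scale (SE 0.27, FDR = 0.331), and RARG and RXRB had log2 fold changes of 0.04 (SE 0.22, FDR = 0.946) and 0.17 (SE 0.23, FDR = 0.731).

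**Figure D5:**
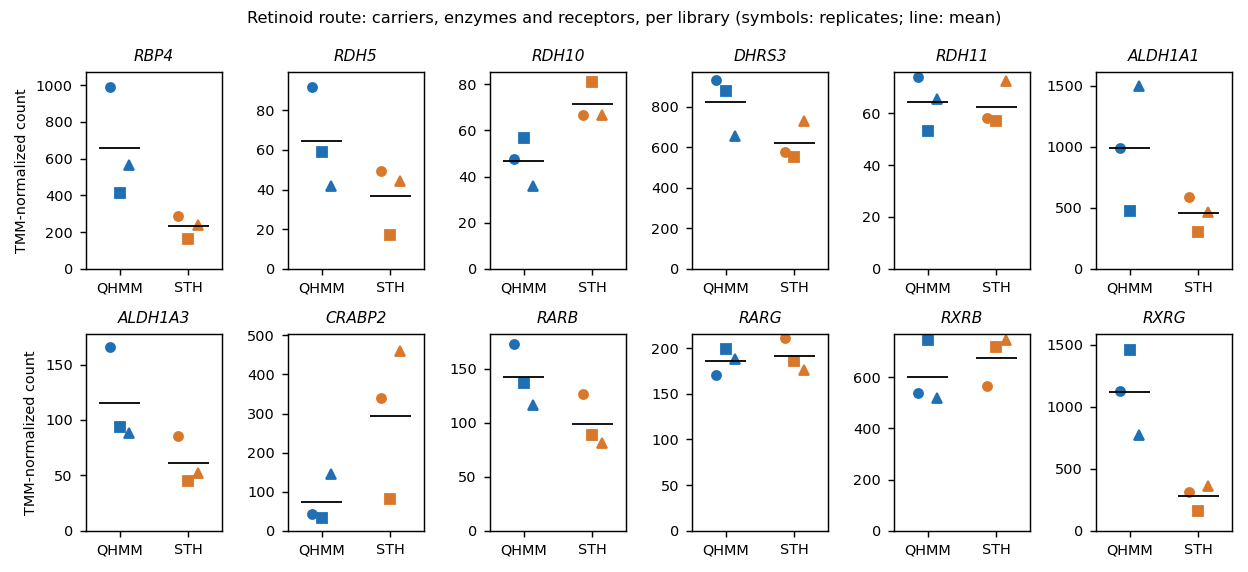
TMM-normalized counts per library of the retinol carrier RBP4, retinoid enzymes (RDH5, RDH10, DHRS3, RDH11, ALDH1A1, ALDH1A3), CRABP2 and the receptors RARB, RARG, RXRB and RXRG, with 1 symbol per replicate, lines for the means and axes that start at 0. RXRG and RBP4 were called lower in STH, and RDH10 is the enzyme shown whose STH libraries (66.6 to 80.8) all exceed the QHMM libraries (35.8 to 56.7).

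All 7 of the other DHRS enzymes were tested and 0 were called, with a median log2 fold change of -0.08. DHRS7B, a peroxisomal reductase of ether lipid synthesis, had 299, 340 and 216 normalized counts in QHMM and 128, 51.7 and 163 in STH. There was no overlap, and the log2 fold change was -1.32 (SE 0.37, FDR = 0.0825). DHRS7C had 9059, 12507 and 15621 in QHMM and 4191, 3483 and 10967 in STH. STH replicate 3 lay inside the QHMM range, and the log2 fold change of -0.996 (FDR = 0.226, SE 0.42) became -1.69 (FDR = 0.0284) without that library. This gene was therefore the most abundant member and also one of the most variable among STH animals, with a coefficient of variation of 66.5%. DHRS7, a reductase of the endoplasmic reticulum, had 67.5, 57.8 and 77.8 in QHMM and 113, 113 and 107 in STH, higher in all STH libraries (log2 fold change 0.71, SE 0.25, FDR = 0.148). DHRS11, DHRS1, DHRS12 and DHRS13 had log2 fold changes between -0.27 and 0.35 with overlapping breeds.

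Of the 15 hydroxysteroid dehydrogenases, 8 were tested, HSD17B12 was called, and the median log2 fold change was -0.43. HSD17B8, a mitochondrial reductase of fatty acid synthesis, showed little spread, with 706, 805 and 709 normalized counts in QHMM and 493, 517 and 571 in STH. The breeds did not overlap, but the log2 fold change of -0.49 (FDR = 0.1997, SE 0.19) was small. HSD17B4, the peroxisomal bifunctional enzyme of fatty acid oxidation, likewise did not overlap, with 287, 276 and 350 in QHMM and 261, 202 and 245 in STH (log2 fold change -0.37, SE 0.22, FDR = 0.399). HSD17B10 had a log2 fold change of -0.22 (FDR = 0.654, SE 0.23), with overlap.

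HSD3B7, an enzyme of bile acid synthesis, had 366, 367 and 190 normalized counts in QHMM and 152, 88.4 and 205 in STH (log2 fold change -1.05, SE 0.35, FDR = 0.128). HSD11K was rare, with 36.0, 29.5 and 11.3 in QHMM and 11.7, 3.23 and 6.78 in STH (log2 fold change -1.77, SE 0.59, FDR = 0.131). The deposited table describes HSD11K as the type 2 enzyme, which inactivates glucocorticoids, and matches it to human HSD11B2. It was kept because HSD11B2 was left out by symbol alone. QHMM replicate 3 and an STH library overlapped in both HSD3B7 and HSD11K. HSD17B7, a ketosteroid reductase of cholesterol synthesis, had the highest log2 fold change of this class, 0.85 (SE 0.47, FDR = 0.360), which rested on STH replicate 2 with 93.8 normalized counts against 31.6 and 35.0 in the other STH libraries.

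Of the 6 aldo-keto reductases with DHDH, 4 were tested, and all 4 had a negative log2 fold change, with a median of -0.29. AKR1B1, the aldose reductase that makes sorbitol from glucose, had 985, 1146 and 817 normalized counts in QHMM and 772, 599 and 1084 in STH (log2 fold change -0.26, SE 0.26, FDR = 0.628). AKR1A1, the general aldehyde reductase, had a log2 fold change of -0.31 (FDR = 0.520, SE 0.24), and AKR1E2 had -0.10 (SE 0.28, FDR = 0.883). The breeds overlapped in these 3 genes, and AKR1E2 varied least of all tested members among QHMM animals, with a coefficient of variation of 2.41%.

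Under the name rule, the P450 enzymes were the scarcest class. Of the 5 of sterol, bile acid, vitamin D and steroid metabolism, 4 were at the floor, and 0 were tested. Of the 7 others, 2 were tested and 0 were called, and the 7 summed to 2.47 to 9.62 RPKM per library. Rows outside the rule whose best human match is a P450 enzyme, described below, summed to 78.1 to 143 RPKM. The low sum therefore holds for the named members only, although 37 of those 55 rows were also at or under 3 counts in every library. CYP1A1, the P450 induced through the aryl hydrocarbon receptor, had 36.0, 85.0 and 256 normalized counts in QHMM and 140, 139 and 212 in STH. The QHMM animals differed by 7.11-fold, which is more than the difference between breeds (log2 fold change 0.38, SE 0.55, FDR = 0.756), and the sign turned without QHMM replicate 1. CYP2J, an epoxygenase of arachidonic acid, had 27.0, 13.0 and 13.3 in QHMM and 19.1, 47.4 and 15.8 in STH (log2 fold change 0.60, SE 0.52, FDR = 0.579), and its sign turned without STH replicate 2. Of the 13 electron donors of P450 enzymes chosen, 5 were in the table and all were tested. POR, the reductase that serves the P450 enzymes of the endoplasmic reticulum, had 484, 534 and 411 in QHMM and 509, 760 and 819 in STH, so that the breeds overlapped (log2 fold change 0.55, SE 0.24, FDR = 0.238), and 0 of the 5 were called.

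Related oxidoreductases outside the name rule were also examined. Of 24 genes listed, 20 were in the table, 19 were tested and 1 was called (5.26%), compared with 3.45% of all tested genes. ADHFE1, a mitochondrial transhydrogenase that oxidizes 4-hydroxybutyrate to succinic semialdehyde, the substrate of ALDH5A1, had 434, 576 and 576 normalized counts in QHMM and 162, 274 and 281 in STH. The breeds did not overlap, and the mean fell from 529 ± 82.1 (SD, n = 3) to 239 ± 66.6 (SD, n = 3), with a log2 fold change of -1.15 (FDR = 0.0416, SE 0.26). The call was lost in each of the 6 fits that left out 1 library, with an FDR from 0.0570 to 0.124. HSDL2 and BDH1 were named after their values were seen. HSDL2, a peroxisomal relative of the hydroxysteroid dehydrogenases, had 188, 280 and 461 in QHMM and 629, 1102 and 720 in STH (log2 fold change 1.40, SE 0.34, FDR = 0.0502). It was called by DESeq2 (FDR = 0.00224) and in 2 of the 6 fits that left out 1 library, while the FDR in these fits reached 0.155. BDH1, the mitochondrial enzyme that oxidizes the ketone body 3-hydroxybutyrate, had 69.3, 31.9 and 80.9 in QHMM and 16.7, 9.70 and 28.2 in STH, lower in all STH libraries (log2 fold change -1.74, SE 0.47, FDR = 0.0727).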

How the data were processed

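The longissimus dorsi of 6 females was compared, 3 per breed with 1 library each, and the groups were taken from the labels. Per the paper's methods, clean Ion Proton reads were mapped to Oar 3.1 and unique mapped reads were kept. The aligner, counter, annotation release and use of strand are not given in the sources used here. The authors deposited raw counts per gene, and RPKM values that scale those counts by gene length and library total; 25 genes whose names had become dates in the RPKM table were left out of the join. Unique mapping can undercount near-identical copies.

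Counts were tested in R 4.3.3 with edgeR 4.0.16 (TMM, filterByExpr, quasi-likelihood F test with breed as the only term, Benjamini-Hochberg FDR over 12506 genes). EBSeq, the program of the study, was not used here. The SE was obtained from the log2 fold change and F. Means and SDs are of normalized counts over 3 libraries. A fixed floor of 3 counts was used for all libraries, whose totals ran from 10982191 to 14334544. Members and gene lists were chosen with earlier results of these data known. Named are the called members, those with an unadjusted p below 0.05, the 15 most abundant, textbook members, the extremes of each class, and the called genes of the other lists with POR. Some members that met none of these grounds are named too, among them HSD17B4, ALDH7A1, ALDH3A2, ALDH1L2, RDH5, RDH11, DHRS12 and DHRS13. Members that were not tested are listed by name. The 8 alternatives were DESeq2 1.42.0, upper-quartile normalization, no low-count filter, at least 10 counts in every library, limma-trend (limma 3.58.1) on log2(RPKM + 1) and with 0.1 as the pseudocount (both restricted to genes reaching 1 RPKM in 3 libraries), the replicate number as a block, and no minimum fold change, besides 6 fits that left out 1 library and 1 that left out 2, added after the data were seen. The code was tested on simulated data. Plots were drawn with matplotlib 3.10.9. No protein or promoter sequences were analysed here.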

Additional observations from a re-analysis of the deposited data

How the results depend on the processing

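Compared with 2 members called, DESeq2 with its size factors called 9 (1 higher and 8 lower in STH), the test without a filter on low counts called 4 (all 4 lower, with ALDH1L1 and DHRS7B added), and limma-trend on log2(RPKM + 1) and on log2(RPKM + 0.1) called 1 each (DHDH, lower). Upper-quartile normalization, a minimum of 10 counts and no minimum fold change called the same 2. Over the fits that left out 1 library, 0 to 3 members were called, 0 without QHMM replicate 1 or STH replicate 2. Of the carriers, electron donors and related oxidoreductases, 3 were called, against 6 with DESeq2, 6 without the filter, 1 with limma-trend on log2(RPKM + 0.1) and 1 to 3 over the fits that left out 1 library. Without both QHMM replicate 2 and STH replicate 3, an alternative added after the data were seen, 0 members and 0 of those genes were called, as only 11 of all genes were (0.0864%), with 4 libraries. The labels do not say whether the replicate numbers pair the animals. Deviations from the breed mean correlated at 0.23, -0.04 and -0.13 for numbers 1, 2 and 3. Libraries of unlike number gave -0.26 to 0.29. With 3 animals per breed, these values cannot settle whether animals were paired. With the replicate block, 3 members (all 3 lower, with ALDH1L1 added) and 6 of the other genes were called. The sign turned in 3 genes that had not passed the test. Over the fits that left out 1 library, ALDH9A1 ranged from -0.0424 (without QHMM replicate 3) to 0.333, CYP1A1 from -0.0856 (without QHMM replicate 1) to 1.449, and CYP2J from -0.0493 (without STH replicate 2) to 1.026. CYP1A1 was -0.0792 without QHMM replicate 2 and STH replicate 3. On the RPKM scale, the median of all genes shifted to 0.12 with log2(RPKM + 1), and 26 of 38 members were lower against 37.9% of all genes. The cause of these differences between settings was not tested. No difference could be tested for the 21 members at or under 3 counts in every library, or for the members with more reads that missed the filter. The part of depth in these low counts was not tested.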

Other observations

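The name rule leaves out rows whose own symbol does not follow it but whose best human match in the deposited table does. There were 78 of these rows, chosen after the data were seen, of which all but PGFS carry only a locus name. Of the 78, 31 were at 0, 29 were tested and 6 were called, 1 higher and 5 lower in STH. The 5 lower rows all match AKR1C enzymes, which reduce ketosteroids and prostaglandins. All 11 rows with an AKR1C match were tested, 8 had an unadjusted p below 0.05, and 10 had a negative log2 fold change, with a median of -1.65. Over all tested genes, 3.45% were called, 19.2% had such a p and 48.2% had a negative log2 fold change. LOC101107541, the most abundant of them with 175 RPKM, had 3279, 2920 and 4010 normalized counts in QHMM and 1232, 740 and 1280 in STH (log2 fold change -1.65, SE 0.27, FDR = 0.0135). LOC101108849 had 1231, 819 and 1995 in QHMM and 251, 393 and 180 in STH (log2 fold change -2.29, SE 0.37, FDR = 0.0133). There was no overlap in either row, and both were called in all 6 fits that left out 1 library. The other 3, LOC101106865, LOC101109633 and LOC101107119, had log2 fold changes of -1.77, -1.73 and -1.52. Their calls held in 2, 1 and 1 of those 6 fits, with FDRs of up to 0.0781, 0.121 and 0.127, and were lost in limma-trend on RPKM. All 3 kept their calls without QHMM replicate 2, and LOC101106865 also without STH replicate 1. The row that went the other way, LOC101109111, had 0.27 (SE 0.41, FDR = 0.768), and PGFS, a prostaglandin F synthase, had -0.95 (SE 0.29, FDR = 0.0990). The summed level of the 11 rows was 503, 308 and 643 RPKM in QHMM and 201, 178 and 142 RPKM in STH. Fibroblast markers summed to 444, 289 and 543 RPKM in QHMM and 434, 219 and 209 RPKM in STH. Adipocyte markers summed to 611, 110 and 198 RPKM in QHMM and 163, 85.9 and 55.4 RPKM in STH, and slow-fibre markers were lower in STH as well. The part of fibroblasts, fat cells or fibre type in the values of the 11 rows was not tested. These rows are close relatives, so unique mapping may divide their reads unevenly, the split between single rows is uncertain, and they are not independent of each other.

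Most P450 matches had few or no reads, as most named P450 members had. Of 55 such rows, 37 were at or under 3 counts in every library. Of the 15 tested, 1 was called (6.67%), compared with 3.45% of all tested genes. LOC101105114, with a CYP4B1 match, was the most abundant at 34.1 RPKM. LOC101105651, with a CYP2D6 match, had 697, 830 and 536 normalized counts in QHMM and 445, 202 and 304 in STH. It did not overlap between breeds and was not called (log2 fold change -1.11, SE 0.30, FDR = 0.0708). LOC101121539, whose best human match is CYP2F1, had 45.9, 124 and 130 normalized counts in QHMM and 486, 574 and 694 in STH. Every STH library exceeded every QHMM library, and the log2 fold change of 2.55 (SE 0.36, FDR = 0.00768) was higher than that of any named member. The match comes from the table, and which P450 enzyme the row encodes was not examined.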
